A study of Mus musculus with 32 samples.

Results

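A set of 9 regulators of transcription, grouped for their ties to inflammation and matrix breakdown, was followed through RNA sequencing of primary mouse chondrocytes: Cebpa, Cebpb, Cebpd, Cebpg, Elf3, Ets1, Ets2, Runx1 and Irf1. They were chosen by symbol, all 9 were found among the 41388 genes counted, and all 9 were tested in every comparison. The 32 libraries, 2 for each of 16 conditions, came from chondrocytes of C57BL/6 mice, isolated from newborn pups and not passaged. The paper's results name the sternum as the source of such cells, and its methods name the sterna and ribs. Wild-type cells received no virus and were left untreated or were given FX11 (40 µM), an inhibitor of lactate dehydrogenase A, IL-1β (10 ng/mL) or both agents. Chondrocytes with floxed alleles of Ldha, Nampt or Nfkbiz (written Ldha f/f and so on), which Cre recombinase can delete, were infected with adenovirus carrying eGFP (GFP virus) or Cre with eGFP (Cre virus). They were then cultured without or with IL-1β for 24 h. In the floxed lines the untreated controls therefore also carried virus and eGFP. No cells without a floxed allele received Cre virus among the libraries analysed here, so that the deletion and the Cre virus itself cannot be told apart. The sources used here do not say whether the libraries of a condition came from separate animals, and p-values then measure only the spread between these libraries.

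The C/EBP proteins are basic leucine zipper factors that bind DNA as dimers with each other. C/EBPβ and C/EBPδ are the inflammatory members, and in many cells they act with NF-κB at promoters of acute-phase proteins, cytokines and matrix metalloproteinases. C/EBPα is best known from fat, liver and myeloid differentiation, and C/EBPγ lacks a strong activation domain and pairs with other leucine zipper factors. ELF3, ETS1 and ETS2 share the ETS DNA-binding domain, and ELF3, first described in epithelia, is an IL-1-inducible activator of MMP13 in chondrocytes. RUNX1 belongs to the Runt family with CBFβ as its partner and is found in cartilage progenitors and articular cartilage. IRF1 is a rapidly induced activator of interferon-responsive genes. IκBζ, the product of Nfkbiz, is a nuclear cofactor of NF-κB, LDHA converts pyruvate to lactate, and NAMPT catalyses the rate-limiting step of NAD salvage.

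Library totals ranged from 15830658 to 39959888 counts with a median of 25363482. Values are given in CPM, counts scaled by the library's total and its TMM factor, and the pair of values of a condition is replicate 1 and replicate 2. In Ldha f/f, Nampt f/f and wild-type cells these come from library sets 1 and 2 as the labels number them, whereas both Nfkbiz f/f libraries come from set 2. Ldha, at 918 and 869 CPM with GFP virus, stood at 118 and 111 CPM with Cre virus in Ldha f/f cells. Nampt, at 59.5 and 54.6 CPM with GFP virus, stood at 6.72 and 6.86 CPM with Cre virus in Nampt f/f cells. Nfkbiz in Nfkbiz f/f cells without IL-1β lay at 16.1 to 17.0 CPM with GFP virus and at 8.28 to 9.65 CPM with Cre virus, a smaller decrease. Nfkbiz under IL-1β was at 235 and 229 CPM with GFP virus and at 29.5 and 32.3 CPM with Cre virus in Nfkbiz f/f cells. It was also lower with Cre virus in Ldha f/f cells (177 and 164 against 69.7 and 66.9 CPM) and in Nampt f/f cells (202 and 204 against 67.7 and 60.8 CPM). All 9 chondrocyte markers checked, among them Col2a1, Acan and Sox9, were over 1 CPM in every condition, and their summed level lay between 13881 and 99147 CPM. A pair of wild-type libraries of set 2 go against their labels: the library labelled IL-1β held Nfkbiz at 9.86 CPM and the library labelled FX11 held it at 166 CPM, where the untreated libraries held 16.0 and 9.30 CPM. Wild-type values are therefore given apart, at the end. RNA was taken from whole cultures, and fewer cells of a type and less RNA per cell cannot be told apart.

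RefSeq promoter windows of GRCm38.p6, from 250 bases before to 50 bases after a transcript start, were given for 7 of the 9 genes in 9 windows, and for Cebpd and Ets1 none was used. Stretches before the start are shown for Elf3, Cebpb and Irf1, since these genes behaved differently after Cre virus and hold recognisable motifs. The Elf3 stretch ends at the upstream end of the gene in the annotation used for its coordinates, which lies before the RefSeq start. Capitals mark, in Elf3, a match to the NF-κB consensus, in Cebpb, 3 copies of TGACG (or CGTCA on the other strand), the short form of the cyclic AMP response element, and in Irf1, a match to the STAT motif TTCNNNGAA followed by a match to the NF-κB consensus.
Elf3, chr1:135258569-135258722, minus strand: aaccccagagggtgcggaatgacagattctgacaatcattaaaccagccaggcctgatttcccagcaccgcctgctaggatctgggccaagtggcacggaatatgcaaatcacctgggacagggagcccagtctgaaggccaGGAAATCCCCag
Cebpb, chr2:167688665-167688914, plus strand: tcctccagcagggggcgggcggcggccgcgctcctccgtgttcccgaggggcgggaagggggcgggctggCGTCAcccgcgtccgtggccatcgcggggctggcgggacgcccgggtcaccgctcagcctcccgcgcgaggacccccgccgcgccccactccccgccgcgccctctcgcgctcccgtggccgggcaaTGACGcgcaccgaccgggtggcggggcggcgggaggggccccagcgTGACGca
Irf1, chr11:53769764-53770013, plus strand: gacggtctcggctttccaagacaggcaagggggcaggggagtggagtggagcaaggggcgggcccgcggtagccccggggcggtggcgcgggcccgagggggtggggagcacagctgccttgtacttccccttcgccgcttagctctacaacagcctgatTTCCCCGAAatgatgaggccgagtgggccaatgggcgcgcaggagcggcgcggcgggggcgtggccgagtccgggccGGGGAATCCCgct
The NF-κB match begins 108 bases before the start of Elf3 and 13 bases before that of Irf1. The STAT match begins 90 bases before that of Irf1, and the TGACG copies 180, 53 and 7 bases before that of Cebpb. Irf1 and Runx1 had further windows, and the distances for Irf1 are to the start of its upstream one. Windows not shown held matches too, with CGTCA 32 bases before the start of Ets2. In Runx1 the ETS motif CCGGAA began 106 bases before a start, and the Runt motif TGTGGT (as ACCACA) lay after another start. Searched on both strands, the NF-κB consensus occurred in 4.51% of 32851 windows, TTCNNNGAA in 8.30%, TGACG in 20.8%, CCGGAA in 14.9% and TGTGGT in 16.8%. The whole element TGACGTCA, the C/EBP motif TTGCNNAA and GAAANNGAA, the core of the interferon-stimulated response element, were found in none of the 9 windows and occurred in 1.79%, 10.8% and 8.56% of all windows. These matches are letters only and say nothing of binding.

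Compared per length, in RPKM (CPM divided by the kilobases of exon), Cebpb had the highest level of the 9 genes in the 6 libraries with GFP virus and no IL-1β, with a median of 85.5 and a range of 69.8 to 115 RPKM. Cebpd followed at a median of 26.9 RPKM, then Ets2 at 18.1, Ets1 at 14.9 and Cebpg at 12.9 RPKM. Lower medians were those of Cebpa at 5.26, Runx1 at 4.59, Irf1 at 3.14 and Elf3 at 0.306 RPKM. Neighbours in this order overlapped in their ranges for Ets1 and Cebpg, for Cebpa and Runx1 and for Runx1 and Irf1, and not for the other neighbours. In the 6 libraries with GFP virus and IL-1β, Cebpb (median 267 RPKM, range 239 to 294) and Cebpd (median 225 RPKM, range 189 to 336) overlapped at the top. Runx1 then stood above Cebpa, at a median of 10.3 against 4.79 RPKM without overlap, and Elf3 remained the lowest at 1.35 RPKM.

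**Figure D1:**
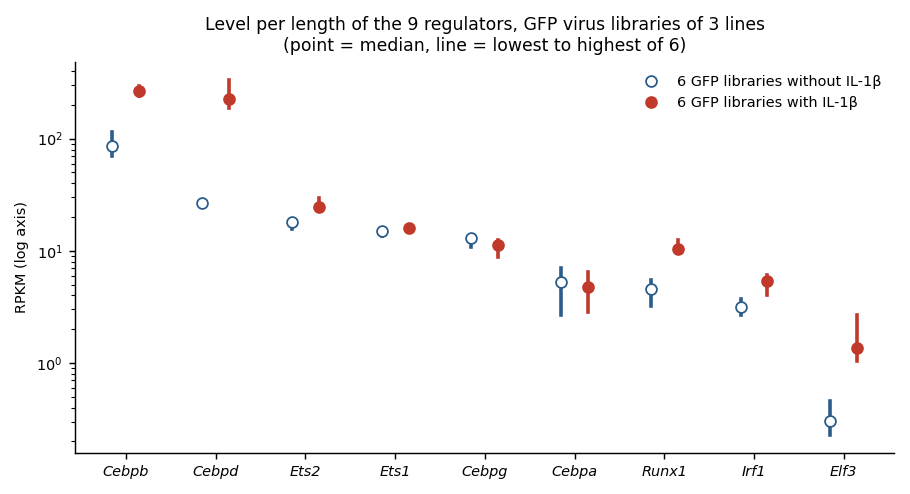
Level per length of the 9 genes (RPKM, log axis) in the 6 GFP virus libraries without IL-1β (open points) and the 6 with IL-1β (filled points), with the median as a point and a line from the lowest to the highest library. Cebpb and Cebpd stood highest with IL-1β, at medians of 267 and 225 RPKM, and Elf3 stood lowest in both conditions.

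The first comparison asked how these regulators respond to IL-1β in cells that kept the floxed gene, over the 12 libraries of the 3 lines given GFP virus. In these cells 7 genes rose (Cebpb, Cebpd, Elf3, Ets1, Ets2, Runx1 and Irf1) and 1 fell (Cebpg), so that 8 of 9 were called at an adjusted p of 0.05 or less by edgeR's quasi-likelihood test, beside 56.2% of all genes tested. For those 7 genes all 6 IL-1β libraries lay above all 6 libraries without it, which held for 10.5% of all genes tested. The median log2 fold change was 0.73 over the 9 genes and -0.01 over all genes, and values after ± beside log2 fold changes are standard errors. Within single lines the same 6 genes (Cebpb, Cebpd, Elf3, Ets2, Runx1 and Irf1) rose in each, beside 27.9% of all genes called in Ldha f/f, 35% in Nampt f/f and 26.8% in Nfkbiz f/f cells. Those called with Cre virus were 7 of 9 in Ldha f/f (background 35.9%), 8 in Nampt f/f (background 43.9%) and 6 in Nfkbiz f/f cells (background 22.1%).

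**Figure D2:**
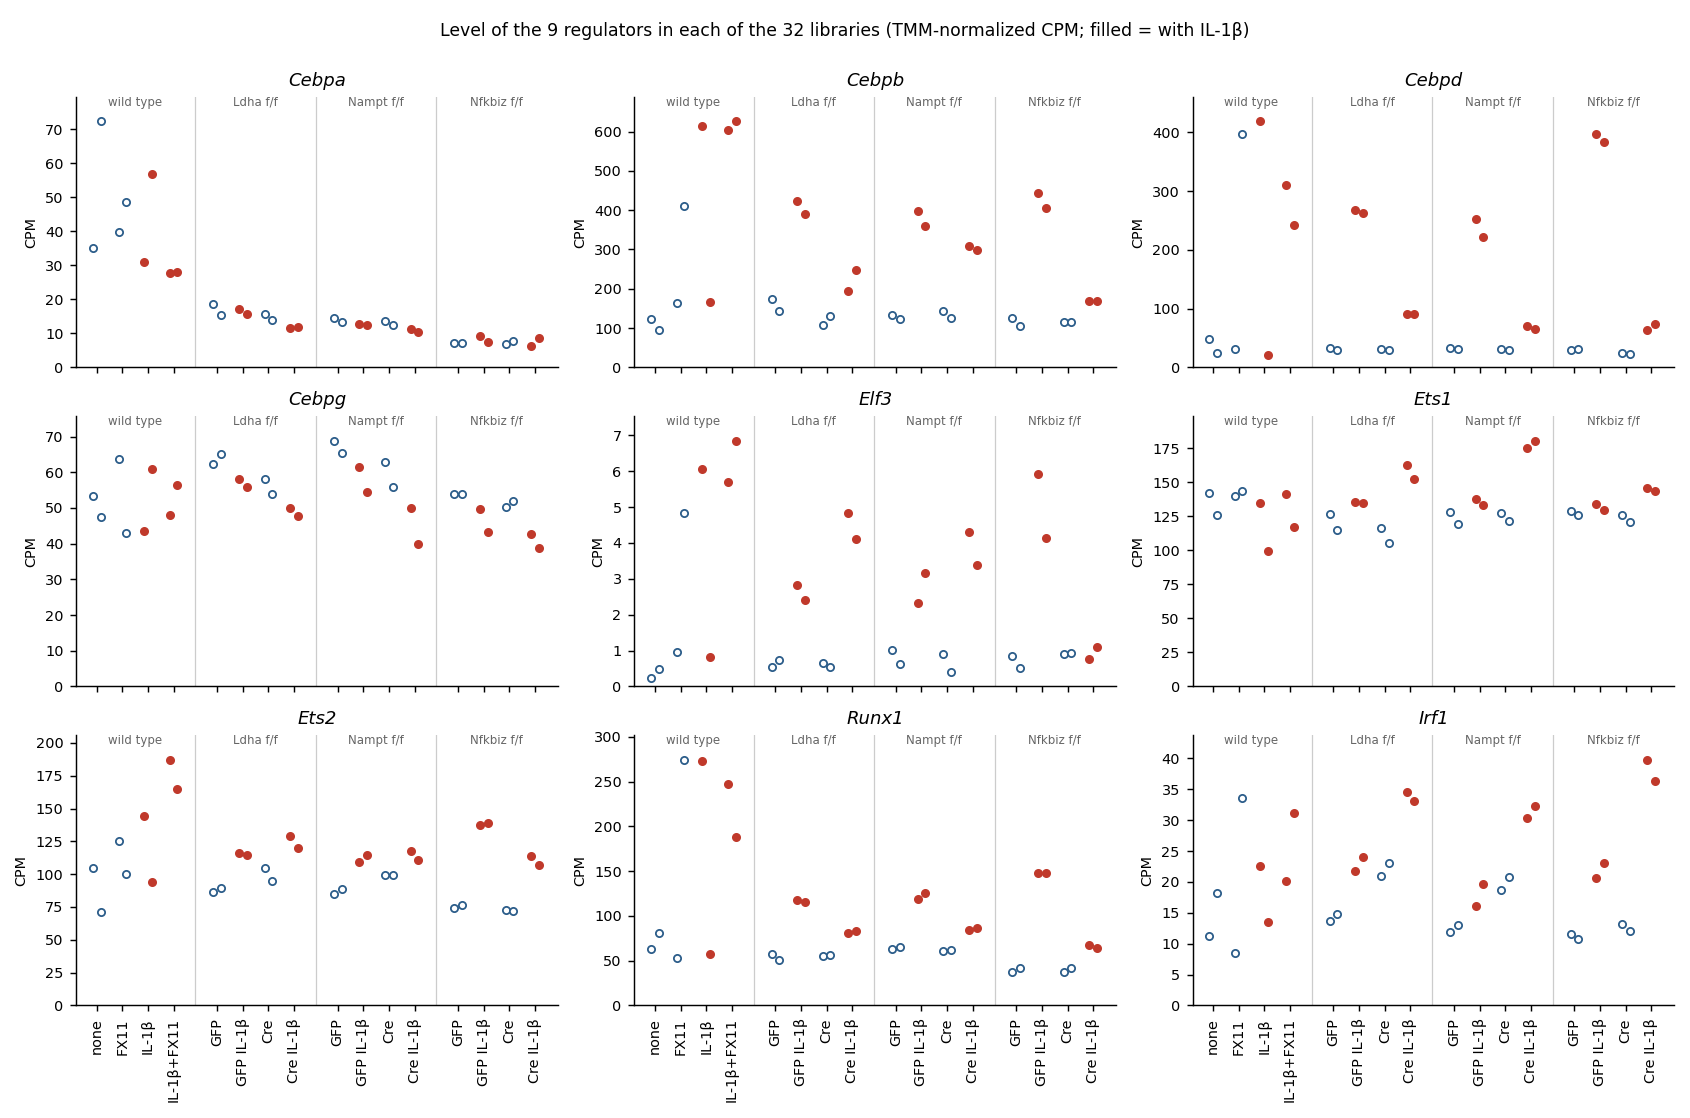
TMM-normalized CPM of each of the 9 genes in all 32 libraries, by line and treatment, on axes that start at 0, with filled points for libraries labelled IL-1β. In the floxed lines Cebpd under IL-1β stood at 223 to 397 CPM with GFP virus and at 64.4 to 90.7 CPM with Cre virus, and among the wild-type libraries those labelled IL-1β and FX11 in set 2 lie apart from their partners.

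The second comparison asked what Cre virus changed. Without IL-1β Irf1 was the one gene called by edgeR in Ldha f/f cells (background 5.52%) and in Nampt f/f cells (background 14.4%), in each case higher. Cebpb in Ldha f/f cells had a log2 fold change of -0.42 (SE 0.14, adjusted p = 0.133) by edgeR but was called lower by DESeq2 (adjusted p = 0.0182), with no filter on low counts (0.000307) and with the replicate number as a block in the edgeR fit, the replicate block (0.0119). The block also called Cebpg lower (-0.18 without it, adjusted p = 0.03 with it) and Ets2 higher (0.19 without it, 0.00447 with it) in Nampt f/f cells. In Nfkbiz f/f cells 0 of 9 were called by edgeR, DESeq2 or limma, 1 had an unadjusted p of 0.05 or less (Cebpd), and 0.26% of all genes were called. Under IL-1β Cre virus changed 7 of 9 genes in Ldha f/f cells (background 34%), 6 in Nampt f/f cells (background 48.4%) and 6 in Nfkbiz f/f cells (background 17.4%). In Ldha f/f cells 4 were called without GFP with IL-1β replicate 1, Cre with IL-1β replicate 1 or Cre with IL-1β replicate 2, and 5 without GFP with IL-1β replicate 2. Cebpb, Cebpd and Runx1 fell and Irf1 rose in each of the 3 lines. The comparisons with Cre virus and those with IL-1β share their GFP virus libraries under IL-1β.

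**Figure D3:**
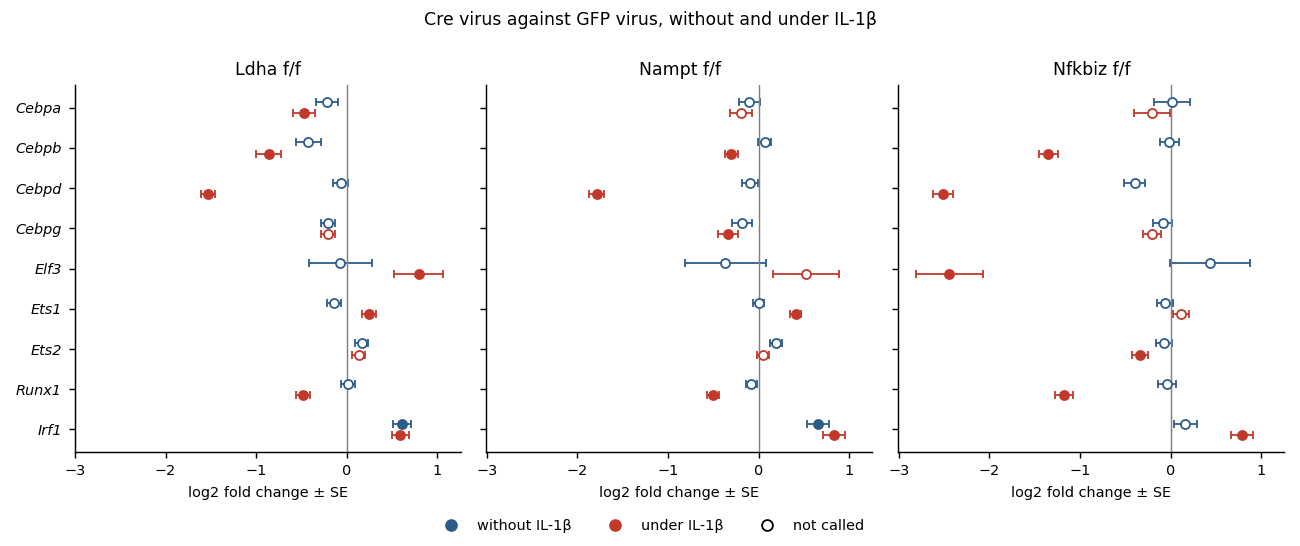
Log2 fold change of Cre virus against GFP virus with its standard error for each gene, without IL-1β (blue) and under IL-1β (red), in the 3 floxed lines, with filled points for adjusted p of 0.05 or less. Under IL-1β Cebpd fell in every line, with log2 fold changes of -1.53, -1.79 and -2.51, and Elf3 fell in Nfkbiz f/f cells only, at -2.44.

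Whether IL-1β acted differently with Cre virus than with GFP virus was tested as an interaction over the 8 libraries of each line. It was called for 2 of 9 genes in Ldha f/f cells (background 11.5%), 4 in Nampt f/f cells (background 22%) and 4 in Nfkbiz f/f cells (background 5.19%). Cebpd and Runx1 were among them in each line, with a smaller increase under IL-1β after Cre virus.

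**Figure D4:**
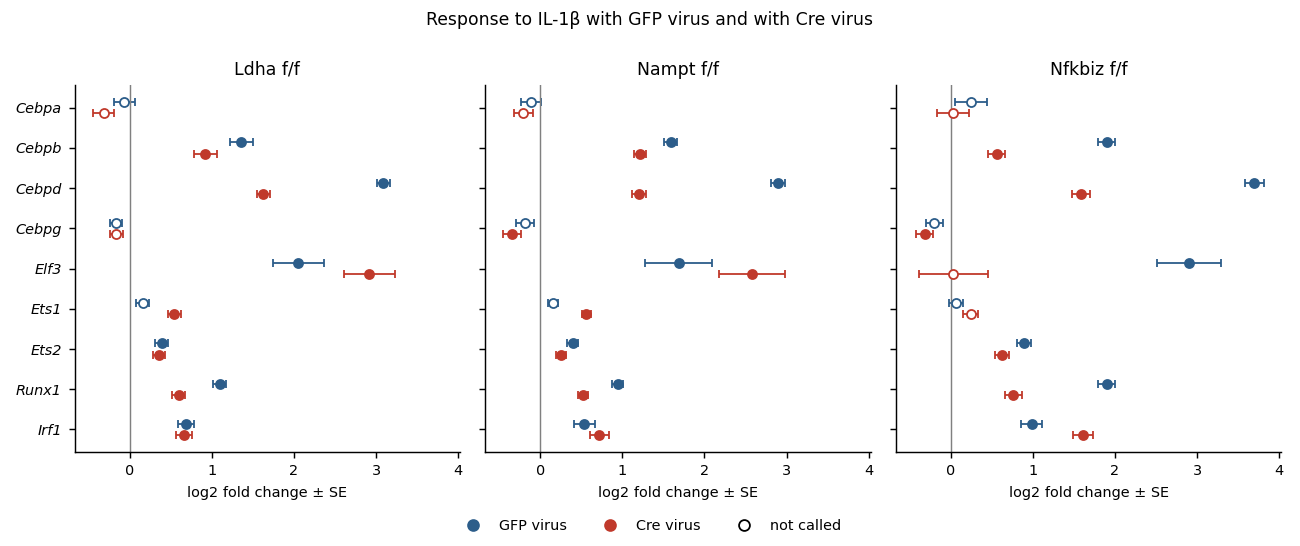
Log2 fold change of IL-1β against no IL-1β with its standard error for each gene, with GFP virus (blue) and with Cre virus (red), in the 3 floxed lines, with filled points for adjusted p of 0.05 or less. The response of Cebpd was 3.70 with GFP virus and 1.58 with Cre virus in Nfkbiz f/f cells, where that of Elf3 was 2.90 and 0.03.

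Cebpd (ENSMUSG00000071637, chromosome 16, 15887286 to 15888466) encodes C/EBPδ, a factor at low level in resting cells that is induced in the acute phase, and with GFP virus it had the largest IL-1β fold change of the 9 genes in each line. With GFP virus Cebpd rose with IL-1β from 33.2 and 28.9 CPM to 268 and 263 CPM in Ldha f/f cells. Cebpd went from 33.1 and 31.5 to 252 and 223 CPM in Nampt f/f and from 28.8 and 31.98 to 397 and 383 CPM in Nfkbiz f/f cells. With Cre virus and IL-1β it reached 90.7 and 90.1 CPM in Ldha f/f, 71.1 and 64.6 CPM in Nampt f/f and 64.4 and 74.1 CPM in Nfkbiz f/f cells. Its log2 fold change with IL-1β after Cre virus was 1.63 in Ldha f/f and 1.20 in Nampt f/f cells, where that of Elf3 was 2.92 and 2.58. With Cre virus alone it lay between 21.9 and 31.9 CPM. Each Cre library under IL-1β thus lay below every GFP library under IL-1β and above every library without IL-1β. Over the 12 GFP libraries its log2 fold change was 3.23 (SE 0.10, adjusted p = 7.31e-14), or a 9.36-fold increase. Under IL-1β the log2 fold change of Cre against GFP virus was -1.53 (SE 0.08, adjusted p = 5.64e-07) in Ldha f/f cells. It was -1.79 (SE 0.08, adjusted p = 3.85e-08) in Nampt f/f and -2.51 (SE 0.11, adjusted p = 1.03e-08) in Nfkbiz f/f cells. The interaction was -1.46 ± 0.11, -1.69 ± 0.12 and -2.11 ± 0.15 on the log2 scale (estimate ± standard error, adjusted p = 4.96e-05, 8.13e-06 and 7.76e-06). Fitted over all 32 libraries, with the wild-type libraries in the spread, Cebpd was called in no line for Cre virus under IL-1β or for the interaction. Within library sets 1 and 2 the log2 difference of Cre from GFP virus under IL-1β was -1.56 and -1.54 in Ldha f/f and -1.82 and -1.78 in Nampt f/f cells.

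Cebpb (ENSMUSG00000056501, chromosome 2, 167688915 to 167690418) is a gene of 1 exon for C/EBPβ, whose isoforms activate or repress inflammatory promoters. With GFP virus Cebpb rose with IL-1β from 174 and 143 CPM to 424 and 391 CPM in Ldha f/f cells. Cebpb went from 132 and 124 to 398 and 359.8 CPM in Nampt f/f and from 125 and 105 to 443 and 405 CPM in Nfkbiz f/f cells. Over the 12 libraries this was a log2 fold change of 1.61 (SE 0.07, adjusted p = 1.18e-11), or 3.06-fold. With Cre virus and IL-1β the levels were 194 and 248 CPM in Ldha f/f, 309 and 299 CPM in Nampt f/f and 168 and 168 CPM in Nfkbiz f/f cells. Within each line they lay below both GFP libraries with IL-1β and above both without it. The 3 lines differed in how far Cre virus lowered Cebpb under IL-1β, with log2 fold changes of -0.86 (SE 0.14, adjusted p = 0.00112), -0.30 (SE 0.07, adjusted p = 0.00611) and -1.35 (SE 0.10, adjusted p = 2.27e-06) in the order Ldha, Nampt, Nfkbiz. The decrease was larger in Nfkbiz f/f than in Nampt f/f cells, with a log2 difference of -1.005 (SE 0.16, adjusted p = 2.9e-05). Against Ldha f/f cells the difference was -0.45 (SE 0.16, adjusted p = 0.0377), a call that was lost with limma (adjusted p = 0.0519) and without any 1 of 6 of the 8 libraries, namely Ldha f/f GFP with IL-1β replicate 1 (0.0607), Nfkbiz f/f GFP with IL-1β replicate 1 (0.137), Nfkbiz f/f Cre with IL-1β replicate 1 (0.0557), Nfkbiz f/f Cre with IL-1β replicate 2 (0.0528), Ldha f/f GFP with IL-1β replicate 2 (0.133) or Ldha f/f Cre with IL-1β replicate 2 (0.332), where the adjusted p stands in parentheses. Nampt f/f and Ldha f/f cells had a difference of 0.55 (SE 0.16, adjusted p = 0.129), with a 95% interval of 0.22 to 0.88. It was called without Ldha f/f Cre with IL-1β replicate 2 (adjusted p = 0.0494). The interaction was -1.34 ± 0.15 (adjusted p = 0.00018) in Nfkbiz f/f cells and -0.37 ± 0.10 (adjusted p = 0.0288) in Nampt f/f cells, where it lost its call without GFP with IL-1β replicate 1 (0.0581), Cre replicate 1 (0.112) or Cre with IL-1β replicate 2 (0.0971). In Ldha f/f cells it was -0.44 ± 0.20 (adjusted p = 0.207, or 0.0478 with the replicate block), and there Cebpb with Cre virus alone stood at 107 and 132 CPM. Tmem189 on the opposite strand, with up to 2135 counts in a library, overlaps Cebpb by 312 bases, and Cebpb held 2353 to 23710 counts. Whether counting used the strand is not given in the sources used here, and the part of Tmem189 in the Cebpb level was not tested.

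Cebpa (ENSMUSG00000034957, chromosome 7, 35119293 to 35121926) encodes C/EBPα, a factor of cell differentiation, and was not called with IL-1β by edgeR, DESeq2 or limma in any line with either virus. With Cre virus in Ldha f/f cells its log2 fold change with IL-1β was -0.32 (SE 0.13, adjusted p = 0.0778), lower within both library sets (-0.46 and -0.24), and it was called with filterByExpr (adjusted p = 0.0486) and with the replicate number as a block (adjusted p = 0.0285). In the 6 GFP libraries it ranged from 7.09 to 18.6 (median 13.9) CPM without and from 7.52 to 17.0 (median 12.6) CPM with IL-1β, and the log2 fold change was 0.01 (SE 0.08, adjusted p = 0.951). With Cre virus under IL-1β it fell in Ldha f/f cells, from 17.0 and 15.7 to 11.5 and 11.7 CPM, a log2 fold change of -0.47 (SE 0.13, adjusted p = 0.0167). This call was lost when the fit left out GFP with IL-1β replicate 1 (0.0777), Cre with IL-1β replicate 1 (0.0703) or Cre with IL-1β replicate 2 (0.0513). Under IL-1β the values were 12.8 and 12.5 CPM with GFP and 11.4 and 10.4 CPM with Cre virus in Nampt f/f cells (-0.19 ± 0.12, adjusted p = 0.213) and 9.37 and 7.52 CPM with GFP and 6.23 and 8.56 CPM with Cre virus in Nfkbiz f/f cells (-0.21 ± 0.20, adjusted p = 0.525). Between lines the effect of Cre virus differed by 0.30 ± 0.20 (adjusted p = 0.272) for Nfkbiz f/f against Ldha f/f cells, a difference that was called without Nfkbiz f/f Cre with IL-1β replicate 1 (adjusted p = 0.0385).

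Cebpg (ENSMUSG00000056216, chromosome 7, 35046422 to 35056503) encodes C/EBPγ, a dimer partner without a strong activation domain, and was the one member called lower with IL-1β by edgeR. In the 6 GFP libraries it ranged from 53.9 to 68.9 (median 63.8) CPM without and from 43.4 to 61.5 (median 55.1) CPM with IL-1β, so that the groups overlapped. Its log2 fold change was -0.18 (SE 0.05, adjusted p = 0.00247), or a small decrease. No single line passed on its own with GFP virus, at -0.16 ± 0.08, -0.19 ± 0.11 and -0.20 ± 0.10 in the Ldha, Nampt and Nfkbiz lines, and with the replicate block Nampt f/f cells did (adjusted p = 0.0178). With Cre virus IL-1β lowered it from 63.0 and 55.9 to 50.1 and 40.0 CPM in Nampt f/f cells, a log2 fold change of -0.35 (SE 0.11, adjusted p = 0.0237), which was not called without Cre replicate 1 (0.155) or Cre with IL-1β replicate 2 (0.197). The Nfkbiz f/f values went from 50.3 and 51.9 to 42.7 and 38.9 CPM (-0.32 ± 0.10, adjusted p = 0.0456), not called without Cre replicate 1 (0.0948), Cre replicate 2 (0.21) or Cre with IL-1β replicate 2 (0.156). That call was also lost with DESeq2 (adjusted p = 0.0787), limma (0.099), RLE factors (0.0514), no filter (0.0723) and the replicate block (0.0625). Under IL-1β Cre virus lowered it in Nampt f/f cells from 61.5 and 54.3 to 50.1 and 40.0 CPM, a log2 fold change of -0.34 (SE 0.11, adjusted p = 0.0251), again not called without GFP with IL-1β replicate 1 (0.11) or Cre with IL-1β replicate 2 (0.198). In Ldha f/f cells the effect of Cre virus under IL-1β was -0.20 (SE 0.08, adjusted p = 0.0672), called with filterByExpr (adjusted p = 0.0435) and the replicate block (adjusted p = 0.027). The log2 fold changes of Cebpg that edgeR called lay between -0.18 and -0.35.

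Elf3 (ENSMUSG00000003051, chromosome 1, 135253575 to 135258568) encodes an epithelium-associated ETS factor and had the lowest level of the 9 genes, with 8 to 224 counts per library. With GFP virus Elf3 rose with IL-1β from 0.545 and 0.726 CPM to 2.84 and 2.40 CPM in Ldha f/f cells. Elf3 went from 1.01 and 0.631 to 2.32 and 3.15 CPM in Nampt f/f and from 0.846 and 0.506 to 5.91 and 4.13 CPM in Nfkbiz f/f cells. The 12 libraries gave a log2 fold change of 2.21 (SE 0.24, adjusted p = 6.21e-07), or 4.61-fold. Nampt f/f cells alone gave 1.68 (SE 0.41, adjusted p = 0.00893), not called without GFP with IL-1β replicate 2 (0.0537). After Cre virus the lines differed. In Nfkbiz f/f cells Elf3 stood at 0.914 and 0.920 CPM without and 0.773 and 1.09 CPM with IL-1β, a response of 0.03 (SE 0.42, adjusted p = 0.97). Against GFP virus under IL-1β it was lower there, with a log2 fold change of -2.44 (SE 0.37, adjusted p = 0.000585). Both Cre libraries with IL-1β thus lay below every GFP library with IL-1β and near the libraries without it. The interaction there was -2.87 (SE 0.58, adjusted p = 0.0114), not called without GFP with IL-1β replicate 1 (0.079) or GFP replicate 2 (0.058). After Cre virus in the other lines IL-1β still raised Elf3, to 4.83 and 4.12 CPM in Ldha f/f cells (2.92 ± 0.31, adjusted p = 6.44e-05) and to 4.31 and 3.38 CPM in Nampt f/f cells (2.58 ± 0.40, adjusted p = 0.000395). Against GFP virus under IL-1β this was a log2 fold change of 0.79 (SE 0.27, adjusted p = 0.0466) in Ldha f/f cells and 0.53 (SE 0.37, adjusted p = 0.262) in Nampt f/f cells. The Ldha f/f call was lost with DESeq2 (adjusted p = 0.112), with edgeR's filterByExpr or no filter (0.0552 and 0.0784) and without any 1 of its 4 libraries, namely GFP with IL-1β replicate 1 (0.121), Cre with IL-1β replicate 1 (0.221), GFP with IL-1β replicate 2 (0.189) or Cre with IL-1β replicate 2 (0.0941). The log2 effect of Cre virus under IL-1β in Nfkbiz f/f cells minus that in Ldha f/f cells was -3.20 (SE 0.46, adjusted p = 1.07e-05), and minus that in Nampt f/f cells it was -2.91 (SE 0.46, adjusted p = 2.78e-05). Antisense gene Gm26642, with at most 19 counts in a library, overlaps Elf3 by 162 bases.

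The 6 epithelial markers checked (Epcam, Cdh1, Krt8, Krt18, Krt14 and Krt5) moved with the Cre virus in Ldha f/f and Nampt f/f cells. Their summed level under IL-1β was 2.96 to 4.07 CPM with GFP virus and 94.3 to 108 CPM with Cre virus in Ldha f/f, and 2.90 to 3.53 and 134 to 139 CPM in Nampt f/f cells. Without IL-1β the Cre libraries of these lines already summed to 19.7 to 24.7 and 39.2 to 44.1 CPM, while Elf3 lay between 0.390 and 0.892 CPM in them. All but Krt14 were over 1 CPM in both lines with Cre virus and IL-1β, with Krt18 and Krt8 the highest, and Krt14 was under 1 CPM throughout and at 0 in all GFP libraries with IL-1β. Over the 8 Nfkbiz f/f libraries the sum lay between 1.25 and 2.56 CPM, and no marker passed the filter on low counts. The part of these cells or genes in the Elf3 level after Cre virus was not tested.

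**Figure D5:**
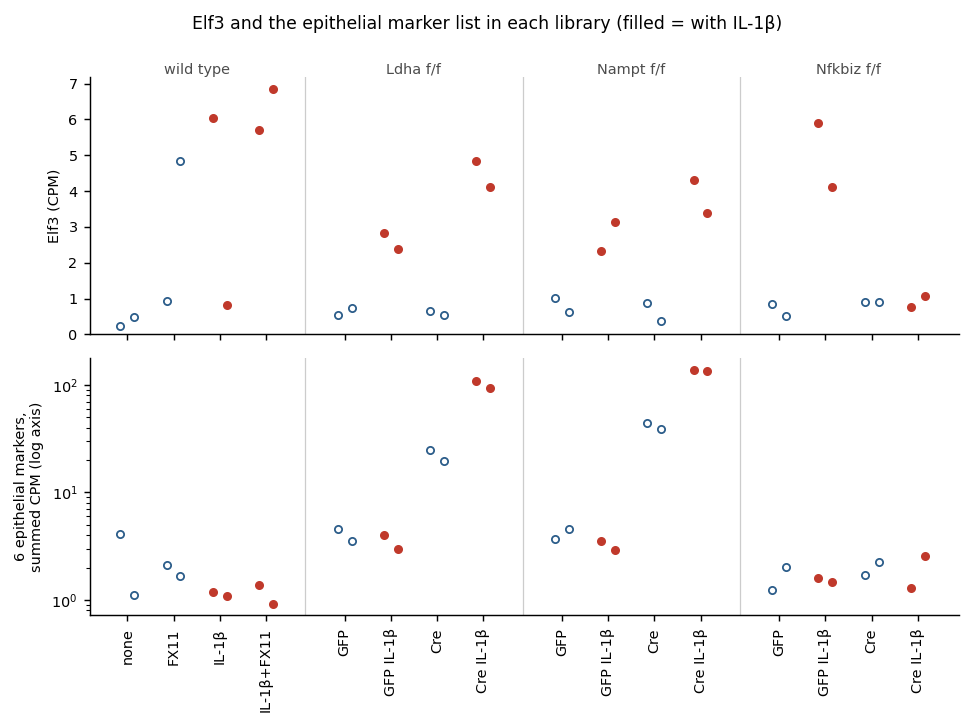
Elf3 in CPM (upper panel) and the summed CPM of 6 epithelial markers (lower panel, log axis) in each of the 32 libraries, with filled points for libraries labelled IL-1β. In Ldha f/f and Nampt f/f cells with Cre virus and IL-1β the markers summed to 94.3 to 139 CPM and Elf3 stood at 3.38 to 4.83 CPM, and in Nfkbiz f/f cells with Cre virus and IL-1β Elf3 stood at 0.773 and 1.09 CPM.

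Ets1 (ENSMUSG00000032035, chromosome 9, 32636221 to 32757820), the founding ETS factor, is an activator of matrix metalloproteinase promoters in many mesenchymal cells. It changed little with GFP virus, ranging from 115 to 129 (median 126) CPM without and from 129.5 to 138 (median 134) CPM with IL-1β over the 6 and 6 libraries. The groups did not overlap and the log2 fold change was 0.13 (SE 0.04, adjusted p = 0.0102), a call that was lost when no filter on low counts was set (adjusted p = 0.0804). Within single lines Ets1 was called with GFP virus by the replicate block, in Ldha f/f (adjusted p = 0.0394) and Nampt f/f cells (adjusted p = 0.0093). After Cre virus it rose with IL-1β in 2 lines, from 117 and 105 to 163 and 153 CPM in Ldha f/f cells (0.54 ± 0.08, adjusted p = 0.000528) and from 127 and 122 to 175 and 181 CPM in Nampt f/f cells (0.56 ± 0.06, adjusted p = 2.46e-05). Ets1 in Nfkbiz f/f cells with Cre virus stood at 126 and 121 CPM without and 146 and 144 CPM with IL-1β (0.24 ± 0.09, adjusted p = 0.0692). The interaction was called in Nampt f/f cells, at 0.41 (SE 0.09, adjusted p = 0.00623). In Ldha f/f cells it was 0.38 ± 0.11 (adjusted p = 0.0559), called without GFP replicate 2 (adjusted p = 0.0373) and with DESeq2 (adjusted p = 0.0318), limma (adjusted p = 0.0492) and the replicate block (adjusted p = 0.00271). Under IL-1β Cre virus raised Ets1 by 0.41 (SE 0.06, adjusted p = 0.00024) on the log2 scale in Nampt f/f cells and by 0.24 (SE 0.08, adjusted p = 0.0387) in Ldha f/f cells. The Ldha f/f call was lost with filterByExpr or no filter (adjusted p = 0.0631 and 0.084) and without any 1 of its 4 libraries, namely GFP with IL-1β replicate 1 (0.159), Cre with IL-1β replicate 1 (0.202), GFP with IL-1β replicate 2 (0.12) or Cre with IL-1β replicate 2 (0.0678). In Nfkbiz f/f cells the effect was 0.12 ± 0.09 (adjusted p = 0.403), and its difference from that in Nampt f/f cells was -0.25 (SE 0.09, adjusted p = 0.0347), not called with no filter (adjusted p = 0.0536) or without Nampt f/f GFP with IL-1β replicate 1 (0.104), Nfkbiz f/f GFP with IL-1β replicate 1 (0.108), Nampt f/f GFP with IL-1β replicate 2 (0.0676) or Nampt f/f Cre with IL-1β replicate 2 (0.176).

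Ets2 (ENSMUSG00000022895, chromosome 16, 95702075 to 95721051) encodes a relative of ETS1 that growth factor signalling activates by phosphorylation. With GFP virus Ets2 rose with IL-1β from 86.2 and 89.8 CPM to 116 and 115 CPM in Ldha f/f cells. Ets2 went from 84.8 and 88.5 to 109.6 and 114 CPM in Nampt f/f and from 74.1 and 76.4 to 138 and 139 CPM in Nfkbiz f/f cells. All 6 libraries with IL-1β lay above all 6 without, and over the 12 the log2 fold change was 0.56 (SE 0.07, adjusted p = 3.38e-06). With GFP virus the Nfkbiz f/f line had the lowest Ets2 levels without IL-1β and the highest with it. The response was larger there, with a log2 difference of 0.49 (SE 0.09, adjusted p = 0.00395) against Ldha f/f and 0.49 (SE 0.10, adjusted p = 0.00339) against Nampt f/f cells. With Cre virus IL-1β still raised it, to 129 and 120.1 CPM in Ldha f/f, 118 and 111 CPM in Nampt f/f and 114 and 107 CPM in Nfkbiz f/f cells. Its log2 fold changes there were 0.35 ± 0.07, 0.25 ± 0.06 and 0.62 ± 0.09, and the second was not called without Cre with IL-1β replicate 1 (0.119). Cre virus under IL-1β lowered Ets2 in Nfkbiz f/f cells, with a log2 fold change of -0.34 (SE 0.09, adjusted p = 0.0181), not called without GFP with IL-1β replicate 1 (0.114), GFP with IL-1β replicate 2 (0.127) or Cre with IL-1β replicate 2 (0.0517). In the other lines the effect was 0.13 ± 0.07 (Ldha f/f, adjusted p = 0.201) and 0.05 ± 0.06 (Nampt f/f, adjusted p = 0.562), and the differences of Nfkbiz f/f cells from them were -0.44 (SE 0.09, adjusted p = 0.00114) and -0.34 (SE 0.09, adjusted p = 0.00613).

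Runx1 (ENSMUSG00000022952, chromosome 16, 92601466 to 92826149), the Runt factor of blood development that is also present in cartilage, followed a course like that of Cebpd at a smaller scale. With GFP virus Runx1 rose with IL-1β from 57.8 and 50.7 CPM to 118 and 115 CPM in Ldha f/f cells. Runx1 went from 63.5 and 65.5 to 119 and 125 CPM in Nampt f/f and from 37.8 and 42.4 to 148 and 148 CPM in Nfkbiz f/f cells. Over the 12 libraries its log2 fold change was 1.30 (SE 0.11, adjusted p = 4.54e-08), or 2.47-fold. The Nfkbiz f/f line started lower and ended higher, and its response exceeded that of Ldha f/f cells by 0.79 (SE 0.11, adjusted p = 0.000102) and that of Nampt f/f cells by 0.94 (SE 0.11, adjusted p = 9.87e-06). Cre virus alone left it at 55.3 and 56.2 CPM in Ldha f/f, 61.0 and 61.6 CPM in Nampt f/f and 37.0 and 41.5 CPM in Nfkbiz f/f cells. Cre virus and IL-1β together gave 80.7 and 83.5 CPM in Ldha f/f, 84.2 and 86.0 CPM in Nampt f/f and 68.0 and 64.1 CPM in Nfkbiz f/f cells, between the levels of the same line without IL-1β and those with GFP virus and IL-1β. Against GFP virus under IL-1β it fell in each line, with log2 fold changes of -0.48 (SE 0.08, adjusted p = 0.000978) in Ldha f/f cells. They were -0.50 (SE 0.06, adjusted p = 7.37e-05) in Nampt f/f and -1.18 (SE 0.10, adjusted p = 5.16e-06) in Nfkbiz f/f cells. Within library sets 1 and 2 the log2 difference was -0.54 and -0.47 in Ldha f/f and -0.50 and -0.54 in Nampt f/f cells. The decrease was larger in Nfkbiz f/f cells, with log2 differences of -0.66 ± 0.11 against Ldha f/f (adjusted p = 4.5e-05) and -0.63 ± 0.11 against Nampt f/f cells (adjusted p = 5.22e-05). The interaction was -1.14 (SE 0.14, adjusted p = 0.00048) in Nfkbiz f/f and -0.42 (SE 0.09, adjusted p = 0.00708) in Nampt f/f cells. It was -0.50 (SE 0.11, adjusted p = 0.0166) in Ldha f/f cells, where it was not called without Cre replicate 1 (0.0539), Cre with IL-1β replicate 1 (0.0536), GFP with IL-1β replicate 2 (0.0544) or Cre replicate 2 (0.0619). Antisense gene Gm26626 (at most 43 counts) overlaps Runx1 by 106 bases.

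Irf1 (ENSMUSG00000018899, chromosome 11, 53770014 to 53778374), an activator of interferon-responsive and antigen presentation genes, went the other way from Cebpb, Cebpd and Runx1 after Cre virus. With GFP virus Irf1 rose with IL-1β from 13.7 and 14.7 CPM to 21.8 and 24.0 CPM in Ldha f/f cells. Irf1 went from 12.0 and 13.0 to 16.1 and 19.7 CPM in Nampt f/f and from 11.6 and 10.8 to 20.6 and 23.0 CPM in Nfkbiz f/f cells. The 12 libraries gave a log2 fold change of 0.73 (SE 0.08, adjusted p = 4.37e-07), and for Nampt f/f cells alone it was 0.54 (SE 0.12, adjusted p = 0.00692), not called without GFP replicate 1 (0.0535) or GFP with IL-1β replicate 2 (0.0583). Cre virus without IL-1β raised it to 21.0 and 23.0 CPM in Ldha f/f cells (0.61 ± 0.10, adjusted p = 0.00706) and to 18.7 and 20.8 CPM in Nampt f/f cells (0.65 ± 0.12, adjusted p = 0.00437), and the first of these calls was lost without GFP replicate 1 (0.0522) or Cre replicate 2 (0.0604). Irf1 in Nfkbiz f/f cells with Cre virus alone stood at 13.1 and 12.1 CPM (0.16 ± 0.13, adjusted p = 1). Under IL-1β and Cre virus Irf1 reached 34.6 and 33.1 CPM in Ldha f/f, 30.4 and 32.4 CPM in Nampt f/f and 39.8 and 36.3 CPM in Nfkbiz f/f cells. These libraries all lay above every GFP library with IL-1β. The log2 fold changes against GFP virus in the order Ldha, Nampt, Nfkbiz were 0.59 (SE 0.10, adjusted p = 0.00108), 0.83 (SE 0.12, adjusted p = 0.000188) and 0.79 (SE 0.12, adjusted p = 0.000569). The interaction was not called in any line, with 95% intervals of -0.33 to 0.28 in Ldha f/f, -0.20 to 0.55 in Nampt f/f and 0.24 to 1.00 in Nfkbiz f/f cells (adjusted p = 0.948, 0.507 and 0.0639). In Nfkbiz f/f cells it was called without Cre with IL-1β replicate 2 (adjusted p = 0.0425). Gm17334 on the opposite strand, with at most 35 counts, overlaps Irf1 by 135 bases.

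The 3 lines were compared with each other in fits over all 24 floxed libraries with the library set as a covariate. With GFP virus the response to IL-1β was larger in Nfkbiz f/f cells for Cebpd, Ets2 and Runx1, that is 3 of 9 against Ldha f/f cells (background 2.42%) and the same 3 against Nampt f/f cells (background 4.01%). Cebpb was called as well against Ldha f/f cells with DESeq2 (adjusted p = 0.0381), limma (0.0409) and no filter (0.000619), where edgeR gave 0.53 (SE 0.16, adjusted p = 0.0982). For Cebpd the difference was 0.59 (SE 0.11, adjusted p = 0.0038) and 0.79 (SE 0.11, adjusted p = 0.000176). Between Nampt f/f and Ldha f/f cells 0 of 9 were called by edgeR, DESeq2 or limma, 0 had an unadjusted p of 0.05 or less, and 0.012% of all genes were called. All Nfkbiz f/f libraries come from library set 2, and the summed level of 7 fibroblast markers was 951 to 1403 CPM in them against 2441 to 6065 CPM in the other floxed libraries. Their part in these differences was not tested.

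For the effect of Cre virus under IL-1β, Cebpb, Cebpd, Elf3, Ets2 and Runx1 were lower in Nfkbiz f/f than in Ldha f/f cells (5 of 9, background 27%), and these genes and Ets1 were lower than in Nampt f/f cells (6 of 9, background 36.3%). For Cebpd the difference was -0.94 (SE 0.11, adjusted p = 5.07e-07) against Ldha f/f and -0.67 (SE 0.11, adjusted p = 3.35e-05) against Nampt f/f cells. Its level with Cre virus and IL-1β was 64.4 to 74.1 CPM in Nfkbiz f/f and 64.6 to 71.1 CPM in Nampt f/f cells. With GFP virus and IL-1β it was 383 to 397 and 223 to 252 CPM. These GFP libraries also enter the line differences in the response to IL-1β, so that the line differences are not independent. Nampt f/f against Ldha f/f cells gave 0 of 9 calls by edgeR, 1 by DESeq2 and 1 by limma (Cebpb in both), 2 at an unadjusted p of 0.05 or less (Cebpb and Cebpd), and a background of 0.538%. For Cebpd this difference was -0.27 ± 0.11 with a 95% interval of -0.49 to -0.04, and for Irf1 it was 0.23 ± 0.13 with an interval of -0.05 to 0.51. The chondrocyte markers summed under IL-1β to 26893 to 27313 CPM with GFP and 13881 to 14767 CPM with Cre virus in Ldha f/f cells. Their sums were 26458 to 27091 and 14816 to 15186 CPM in Nampt f/f cells, and 30629 to 32925 and 36814 to 39399 CPM in Nfkbiz f/f cells. The 8 leukocyte markers, of which 2 to 4 were over 1 CPM in a floxed group, summed to higher values with IL-1β. With GFP virus their sum was 15.3 to 15.9 CPM without and 25.4 to 27.9 CPM with IL-1β in Ldha f/f, 13.35 to 14.5 and 22.2 to 26.2 CPM in Nampt f/f and 20.4 to 20.7 and 43.6 to 45.6 CPM in Nfkbiz f/f cells. Cd68 had the highest level of these markers in these GFP libraries. In Nfkbiz f/f cells it went from 15.2 and 12.2 to 39.0 and 37.5 CPM with IL-1β. Csf1r rose in Ldha f/f and Nampt f/f cells but went from 2.05 and 3.63 to 1.55 and 1.74 CPM in Nfkbiz f/f cells. Of the 5 endothelial markers, 1 to 3 were over 1 CPM in a floxed group, so that their sums rest on few genes. Under IL-1β they summed to 5.24 to 5.74 CPM with GFP and 17.1 to 21.2 CPM with Cre virus in Ldha f/f, 6.85 to 7.61 and 23.2 to 26.4 CPM in Nampt f/f and 3.78 to 5.01 and 7.05 to 7.83 CPM in Nfkbiz f/f cells. Without IL-1β the sums were also higher with Cre virus in Ldha f/f and Nampt f/f cells. In Nfkbiz f/f cells they then overlapped, at 3.83 to 4.89 CPM with GFP and 2.85 to 4.98 CPM with Cre virus. The part of these cell types in the results was not tested.

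Of 33 relatives of the same families (other C/EBP, ETS, Runt and IRF genes), 27 passed the filter on low counts in the 12 GFP libraries, and 14 rose and 5 fell with IL-1β, with a median log2 fold change of 0.19. Of all genes tested there, 56.2% were called. The largest called increases among the relatives over these 12 libraries were those of Etv1 and Etv5, ETS factors of the PEA3 group. Etv1 went from 2.58 and 1.70 to 6.45 and 5.97 CPM in Ldha f/f cells and had a log2 fold change of 1.79 (SE 0.20, adjusted p = 9.89e-07) over the 12 libraries. Etv5 went from 18.6 and 20.5 to 51.3 and 52.6 CPM in Nfkbiz f/f cells, and its log2 fold change over the 12 was 0.73 (SE 0.12, adjusted p = 8.59e-05). Ddit3, the stress-induced C/EBP relative CHOP, fell from 129 and 140.1 to 56.6 and 57.2 CPM in Nampt f/f cells, with a log2 fold change over the 12 of -1.20 (SE 0.05, adjusted p = 1.94e-12). Under IL-1β Cre virus lowered Etv1 in the Ldha, Nampt and Nfkbiz lines (-1.18 ± 0.25, -1.01 ± 0.24 and -1.25 ± 0.31) and Etv5 likewise (-0.49 ± 0.09, -0.30 ± 0.08 and -1.15 ± 0.15). Over the relatives Cre virus under IL-1β raised 9 and lowered 9 of 29 tested in Ldha f/f cells (background 34%). It raised 9 and lowered 12 of 28 in Nampt f/f (background 48.4%), and raised 0 and lowered 3 of 27 in Nfkbiz f/f cells (background 17.4%).

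A list of 12 genes described as targets of these factors (Mmp13, Mmp3, Nos2, Ptgs2, Lcn2, Saa3, Il6, C3, Hp, Psmb9, Tap1 and Gbp2) was counted beside them, and 11 rose with IL-1β over the 12 GFP libraries, with a median log2 fold change of 6.83. Of all genes tested there, 56.2% were called. The list was chosen with earlier results of these data known, so that its counts do not test the activity of the regulators. Tap1, a peptide transporter of antigen presentation, had a log2 fold change of -0.07 (SE 0.10, adjusted p = 0.575). Mmp3, or stromelysin, went from 0.831 and 1.21 to 872 and 864 CPM in Ldha f/f cells and to 170.1 and 161 CPM with Cre virus and IL-1β. The acute-phase gene Saa3 under IL-1β stood at 3634 and 3734 CPM with GFP virus and 225 and 176 CPM with Cre virus in Nfkbiz f/f cells, a log2 fold change of -4.22 (SE 0.14, adjusted p = 8.3e-10). Cre virus under IL-1β lowered 9 of the 12 in each line, and it raised 1 in Ldha f/f cells (Psmb9) and 1 in Nfkbiz f/f cells (Tap1). The background was 34% in Ldha f/f, 48.4% in Nampt f/f and 17.4% in Nfkbiz f/f cells. The median log2 fold change of the 12 listed genes was -1.28 in Ldha f/f, -1.26 in Nampt f/f and -2.78 in Nfkbiz f/f cells.

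As a description of likeness, each member was set against the log2 CPM of 14196 genes over the 24 floxed libraries, which share lines, treatments and library sets. The genes closest to Cebpb were Lrrc8d (r = 0.964) and Cxcl3 (r = 0.958), and those closest to Cebpd were Pde4b (r = 0.987) and Saa4 (r = 0.984). For Runx1 they were Alcam (r = 0.972) and Cxcl3 (r = 0.964), and for Ets2 Cx3cl1 (r = 0.967) and Ch25h (r = 0.943). Irf1 was closest to Ube2l6 (r = 0.934) and Stx11 (r = 0.929) and Elf3 to Nadk (r = 0.954) and Cecr2 (r = 0.946), and Zbtb43 (r = 0.923) was among the genes closest to Ets1. Cebpa and Cebpg were closest to Meox1 (r = 0.950) and Psip1 (r = 0.943) and to Acsl3 (r = 0.927) and Ssr1 (r = 0.920). Among the members themselves the highest correlations were those of Cebpb with Cebpd (r = 0.941), Cebpd with Runx1 (r = 0.941) and Cebpb with Runx1 (r = 0.933). The lowest was that of Cebpg with Irf1 (r = -0.677), each over the same 24 libraries.

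In wild-type cells, which carried no virus, no member was called in any of the 4 comparisons. The background was 0% for IL-1β, 0% for FX11, 0% for FX11 added to IL-1β and 0% for both agents against none. At an unadjusted p of 0.05 or less edgeR gave 2, 1, 0 and 3 of the 9 members and 153, 68, 102 and 860 of 15461 genes in that order. DESeq2 called 2 members (Cebpb and Elf3) in the last comparison and 0 in the others, and limma called 0 in each. The pairs of libraries labelled IL-1β and FX11 lay far apart. Cebpd stood at 47.8 and 24.9 CPM in the untreated libraries and 418 and 21.1 CPM in those labelled IL-1β. It stood at 31.6 and 397 CPM in those labelled FX11 and 310.0 and 242 CPM in those labelled with both. For Cebpb the values in the same order were 123 and 95.3, then 614 and 166, then 165 and 411, and last 604 and 626 CPM. Elf3 stood at 0.236 and 0.478 CPM untreated, 6.05 and 0.821 CPM with the label IL-1β, 0.945 and 4.83 CPM with the label FX11 and 5.71 and 6.86 CPM with both. Runx1 in the same order stood at 62.7 and 80.4, then 273 and 57.8, then 52.5 and 275, and last 248 and 188 CPM. For each of these 4 genes the set 2 library labelled IL-1β was near the untreated libraries and the set 2 library labelled FX11 was high. Both libraries with IL-1β and FX11 were high. The comparison of both agents against none holds neither of the doubted libraries itself. Its standard errors still come from the fit over all 8 wild-type libraries, the doubted ones among them. Its log2 fold changes were 2.93 ± 1.55 for Cebpd, 2.50 ± 0.70 for Cebpb, 4.15 ± 1.22 for Elf3 and 1.62 ± 0.93 for Runx1. They were 1.01 ± 0.29 for Ets2, 0.81 ± 0.66 for Irf1 and -0.93 ± 0.41 for Cebpa. Fitted after the fact over the 6 libraries without both doubted ones, which leaves 1 library each for IL-1β and FX11 and assumes that they vary like the rest, 0 of 9 members were called by edgeR in any of the 4 comparisons. The log2 fold change of IL-1β was then 3.53 ± 0.43 for Cebpd (adjusted p = 0.131), 2.49 ± 0.27 for Cebpb (adjusted p = 0.111) and 4.09 ± 0.58 for Elf3 (adjusted p = 0.161), against 2.60 ± 1.53, 1.84 ± 0.69 and 3.28 ± 1.18 over all 8 libraries. Within set 1 alone, with 1 library for each treatment and so no test, FX11 added to IL-1β left Cebpb at 604 against 614 CPM, Cebpd at 310.0 against 418 CPM and Runx1 at 248 against 273 CPM. Cebpa was higher in the wild-type libraries than in the floxed ones, at 27.8 to 72.4 CPM against 6.23 to 18.6 CPM. How many of all genes separate in this way was not counted. The leukocyte markers summed to 43.9 to 117 CPM in the wild-type and at most 53.3 CPM in the floxed libraries. For the muscle markers these values were 21.2 to 203 and at most 43.2 CPM, so that both sums overlapped. Wild-type cells also differed in line and carried no virus. The part of these differences in the Cebpa level was not tested. Ets1 ranged from 99.8 to 143 CPM, Cebpg from 42.8 to 63.8 CPM, Ets2 from 71.1 to 187 CPM and Irf1 from 8.53 to 33.7 CPM over the 8 wild-type libraries.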

How the data were processed

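After removal of ribosomal RNA the authors aligned reads with STAR to GRCm38 as of Ensembl release 76 and counted them per gene with featureCounts, and the strand setting of the counting is not given in the sources used here. The deposited counts per gene are not normalized and were used for every test. The authors also deposited CPM and RPKM columns per library, which entered no test. All CPM and RPKM values in the text were computed from the counts with TMM factors and the summed exon length.

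Groups came from the labels. The members and lists were chosen with earlier results of these data known. Symbols and coordinates came from GENCODE, which named 40254 of 41388 gene identifiers, and sequences from RefSeq (GRCm38.p6). Genes over 1 CPM in at least the smallest group's size minus 1 libraries were tested by edgeR's quasi-likelihood test (edgeR 4.0.16, R 4.3.3), two-sided, and called at a Benjamini-Hochberg adjusted p of 0.05 or less. The 355 genes of ribosomal RNA were not tested. Each line was fitted over its 8 libraries, differences between lines over 24 libraries with the library set as a covariate, and IL-1β with GFP virus over 12 libraries with line and library set. All 9 members passed the filter in every fit. The scripts were tested on simulated counts.

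Relatives and targets were named by rule, as the 2 called genes of each list with the largest increase and the 2 with the largest decrease over the 12 libraries, and likeness by the 2 genes with the highest Pearson correlation of log2 CPM (prior count 2). Tap1 and Psmb9 were named as counts of 1. Some genes that these rules select are not reported here. Markers were listed by cell type. At the smallest library total, 15830658 counts, the floor of 3 counts lies well under 1 CPM, and intervals cover the spread between libraries as the fit estimates it. Alternatives were DESeq2 1.42.0, limma 3.58.1 (voomWithQualityWeights), RLE factors, filterByExpr, no filter, the replicate number as a block, other libraries in the fit and each library left out in turn. Fits without the doubted wild-type libraries were added after seeing the data.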

Additional observations from a re-analysis of the deposited data

Results flagged for a closer look

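A total of 81 differences between conditions or lines were tested for the 9 genes, and 27 passed an adjusted p of 0.05 (edgeR's quasi-likelihood test). The share of all genes called in the comparisons pooled here ran from 0.012% to 36.3%. No library stood apart by Dixon's test in any of the 18 groups of 6 libraries with GFP virus examined. Each group joined the paired libraries of the floxed lines, so that a line standing apart can be masked by its own pair. The usual chance rate of about 1 in 20 therefore does not hold here. Wild-type libraries were not in this test.

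The response to IL-1β was smaller with Cre virus than with GFP virus for Cebpd in the Ldha, Nampt and Nfkbiz lines, with log2 differences of -1.46, -1.69 and -2.11. For Runx1 the differences were -0.50, -0.42 and -1.14 in the same lines. Cebpb differed by -0.37 in Nampt f/f and -1.34 in Nfkbiz f/f cells, and Elf3 by -2.87 in Nfkbiz f/f cells. Of the differences that edgeR called, that of Ets1 in Nampt f/f cells was the one with a larger response after Cre virus, by 0.41. The difference was also positive but not called for Ets1 in Ldha f/f cells, at 0.38 (SE 0.11, adjusted p = 0.0559), and for Irf1 in Nfkbiz f/f cells, at 0.62 (SE 0.18, adjusted p = 0.0639).

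With GFP virus the response to IL-1β was larger in Nfkbiz f/f than in Ldha f/f cells by 0.59 for Cebpd, 0.49 for Ets2 and 0.79 for Runx1 on the log2 scale, and larger than in Nampt f/f cells by 0.79, 0.49 and 0.94 for the same genes.

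The effect of Cre virus under IL-1β in Nfkbiz f/f cells minus that in Ldha f/f cells was -0.45 for Cebpb, -0.94 for Cebpd, -3.20 for Elf3, -0.44 for Ets2 and -0.66 for Runx1. Minus that in Nampt f/f cells it was -1.005 for Cebpb, -0.67 for Cebpd, -2.91 for Elf3, -0.25 for Ets1, -0.34 for Ets2 and -0.63 for Runx1. These differences share their GFP virus libraries under IL-1β with the line differences in the response to IL-1β. The epithelial markers were higher after Cre virus in Ldha f/f and Nampt f/f cells alone. In Nfkbiz f/f cells under IL-1β, where Cre virus lowered Elf3, their sum was 1.48 to 1.60 CPM with GFP and 1.29 to 2.56 CPM with Cre virus. The part of these markers in the difference of Elf3 was not tested.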

How the results depend on the processing

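No log2 fold change of a member that was called changed direction under any alternative. Fitted over all 32 libraries, which estimates the spread with the wild-type libraries as well, the number of the 9 genes called was 2, 2, 0, 0 and 0 in Ldha f/f cells (IL-1β with GFP virus, IL-1β with Cre virus, Cre virus alone, Cre virus under IL-1β, interaction), 2, 3, 0, 1 and 0 in Nampt f/f cells, 2, 0 and 0 for IL-1β with Cre virus, Cre virus under IL-1β and the interaction in Nfkbiz f/f cells, and 5 for both agents in wild-type cells. Over the 30 libraries without both doubted wild-type libraries, a fit added after seeing the data, it was 0, 4 and 1 in Ldha f/f cells for Cre virus alone, Cre virus under IL-1β and the interaction, and 0 and 1 in Nampt f/f cells for Cre virus alone and the interaction, and 121 of 135 values kept their side of the threshold. For Cre virus alone in Ldha f/f cells DESeq2 and no filter each gave 2. For Cre virus under IL-1β in Nampt f/f against Ldha f/f cells DESeq2, limma and no filter each gave 1, and for both agents in wild-type cells DESeq2 gave 2. RLE factors changed 1 of 234 member values and filterByExpr 4. With 1 library left out at a time, the counts in Ldha f/f cells were 0 to 1 for Cre virus alone, where all libraries gave 1, 4 to 5 for Cre virus under IL-1β, where all gave 7, and 1 to 3 for the interaction, where all gave 2. For the difference of Nampt f/f from Ldha f/f cells in the effect of Cre virus they were 0 to 1, where all gave 0. Adding the 4 wild-type libraries without FX11 to the 12 GFP libraries ended the calls of Ets1 (adjusted p = 0.607) and Cebpg (adjusted p = 0.172), and without the doubted library among them that of Ets1 (adjusted p = 0.0681). The share of all genes called is not set beside the counts of this paragraph. These counts therefore do not show whether the members lost or gained calls more often than other genes. In the fit over all 32 libraries the 1 gene called for Cre virus under IL-1β in Nampt f/f cells was Ets1. Except for Cebpd, calls lost in that fit are not listed gene by gene above. The cause of the changes was not tested.

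Same-numbered libraries deviated together in Ldha f/f (r = 0.40 to 0.65) and Nampt f/f cells (r = 0.43 to 0.58), across genes, and not in Nfkbiz f/f (r = -0.30 to 0.10) or throughout wild-type cells (r = -0.24 to 0.72), and the labels give only a shared set number. The replicate block gave 2 called genes for Cre virus alone (Irf1 and Cebpb) and 4 for the interaction in Ldha f/f cells and 3 for Cre virus alone in Nampt f/f cells (Irf1, Cebpg and Ets2), and over all members and comparisons 10 values passed the threshold only with it and 1 only without it.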
